A study of Homo sapiens with 6 samples.

Results

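The kinases that phosphorylate splicing factors of the SR protein family were examined at the RNA level in PC-9 cells, a human lung adenocarcinoma line with an activating EGFR mutation. The group holds 7 genes, CLK1, CLK2, CLK3, CLK4, SRPK1, SRPK2 and DYRK1A, chosen by gene symbol among 26334 symbols, and it comprises 19 of the 51398 RefSeq isoforms quantified by the authors. Of these isoforms, 16 carry a coding (NM) and 3 a noncoding (NR) RefSeq identifier, and the noncoding ones belong to CLK1, which has 2, and SRPK1, which has 1. Of the 6 RNA-Seq libraries, 2 came from cells with a scrambled shRNA as control (shScr), and 2 each from cells with shRBM10#1 or shRBM10#2, shRNAs that target the splicing factor RBM10. No drug treatment is given for these libraries, and the origin of the replicates in separate cultures is not stated, so the tests below measure the spread between these libraries, which may be technical.

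SR proteins bind exons and recruit the splicing machinery, and their serine- and arginine-rich domains are phosphorylated and dephosphorylated as they do so. The SRPK kinases act mainly in the cytoplasm and promote the import of SR proteins into the nucleus, whereas the CLK kinases act in the nucleus, where they release SR proteins from storage speckles. DYRK1A is a related kinase that also phosphorylates splicing factors, and the phosphatase PP1 removes these phosphates. CLK transcripts are themselves known to be spliced into forms that lack a full reading frame, by skipping of exon 4 or by retention of the introns beside it.

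The isoforms that the results turn on differ at a few exons, printed here from GENCODE 29 transcripts (GRCh38) because the deposited isoform values are read through them. The deposited values carry isoform identifiers and lengths but no coordinates. CLK1 spans positions 200853009 to 200864658 of chromosome 2, minus strand. Its exon 4, at chr2:200860125-200860215, has 91 nt, which is not a multiple of 3. NR_027855 is 91 nt shorter than the coding NM_004071, the length of this exon, and the GENCODE transcript matched to it by identifier skips the exon. NR_027856 is 1400 nt longer than NM_004071, which equals the summed lengths of introns 3 (1022 nt) and 4 (378 nt) that flank exon 4, and the GENCODE transcript matched to it retains both. CLK2 spans positions 155262868 to 155273504 of chromosome 1, minus strand. Its exon 4, at chr1:155268708-155268795, is 88 nt in NM_001294338 and starts 3 nt later in NM_003993, a difference that is a multiple of 3 nt. The remaining CLK2 isoform, NM_001294339, is 88 nt shorter than NM_001294338, again the length of exon 4, but GENCODE lists no transcript of its own for it. Exon 4 of CLK1 and exon 4 of CLK2 are alike, with 55 of 88 nt (62.5%) identical in their best alignment without gaps. SRPK1 spans positions 35832966 to 35921098 of chromosome 6, minus strand, and exon 3 of its noncoding NR_034069, at chr6:35890895-35891041, starts 28 nt upstream of exon 3 of the coding NM_003137. The sequences run 5′ to 3′ on the transcribed strand. In the first line, capitals mark exon 4, with 20 nt of exons 3 and 5 in lower case; in the second, the 3 nt absent from NM_003993; in the last, the 28 nt absent from NM_003137.
CLK1 exon 4: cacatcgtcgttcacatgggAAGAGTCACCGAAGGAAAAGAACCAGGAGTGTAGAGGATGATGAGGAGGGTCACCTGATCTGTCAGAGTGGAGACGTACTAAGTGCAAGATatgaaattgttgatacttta
CLK2 exon 4: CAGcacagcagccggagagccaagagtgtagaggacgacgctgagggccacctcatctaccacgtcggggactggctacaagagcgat
SRPK1 exon 3: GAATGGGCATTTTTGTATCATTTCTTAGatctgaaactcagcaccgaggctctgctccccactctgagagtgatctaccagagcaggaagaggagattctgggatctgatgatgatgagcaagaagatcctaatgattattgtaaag

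The libraries held 31953729 to 37557507 expected counts each. For RBM10 the shScr libraries gave 83.2 and 86.2 CPM (expected counts scaled by library size, after TMM), the shRBM10#1 libraries 59.8 and 56.4 CPM and the shRBM10#2 libraries 27.2 and 26.9 CPM. Every RBM10 KD library thus lay below both shScr libraries, and shRBM10#2 below shRBM10#1. One library stood apart: the deposited effective lengths give shScr replicate 2 fragments of 231.2 nt on average, against 264.8 to 281.2 nt elsewhere. For the gene totals of the kinases and of the listed genes named below, values without this library are given beside each call that was lost without it. For the cell type markers in this paragraph no such values are given, so their calls may depend on this library. Of the 6 epithelial markers examined, all were above 1 CPM in every library. They summed to 20697 to 21498 CPM for shScr, 22747 to 24062 CPM for shRBM10#1 and 18892 to 19806 CPM for shRBM10#2, ranges that do not overlap. Most of this sum came from KRT8, KRT18 and KRT19, and the other markers did not follow it. EPCAM was higher with shRBM10#2 (log2 FC 0.24, FDR = 0.0180, edgeR). EGFR was lower with shRBM10#1 (log2 FC −0.29) and shRBM10#2 (−0.38), and CDH1 was not called with either. The 11 markers of immune, endothelial and fibroblast cells summed to 29.4 to 29.8 CPM for shScr, 39.4 to 45.7 CPM for shRBM10#1 and 29.2 to 29.8 CPM for shRBM10#2, and 3 of them (CDH5, COL1A1 and PECAM1) were above 1 CPM in every library. The part of either marker group in the results was not tested. In bulk RNA, fewer cells with a transcript and less of it per cell cannot be told apart.

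Among the 7 kinases, SRPK1 was the most abundant transcript per length and CLK4 the least. In TPM, which is comparable between genes, SRPK1 was measured at 62.9 ± 10.0 (SD, n = 2) in shScr cells, with 55.9 and 70.0 TPM in the libraries. CLK1 followed at 20.7 ± 0.276 TPM, and CLK3 at 17.7 ± 1.31, SRPK2 at 17.3 ± 1.03 and CLK2 at 16.0 ± 0.297 TPM lay close together (SD, n = 2 each). The ranges of CLK3 and SRPK2 overlapped, so their order is not resolved. DYRK1A was measured at 10.6 ± 1.44 TPM and CLK4 at 4.45 ± 0.0141 TPM (SD, n = 2 each). With either shRNA against RBM10, SRPK1 remained above and CLK4 below the other kinases in every library.

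**Figure D1:**
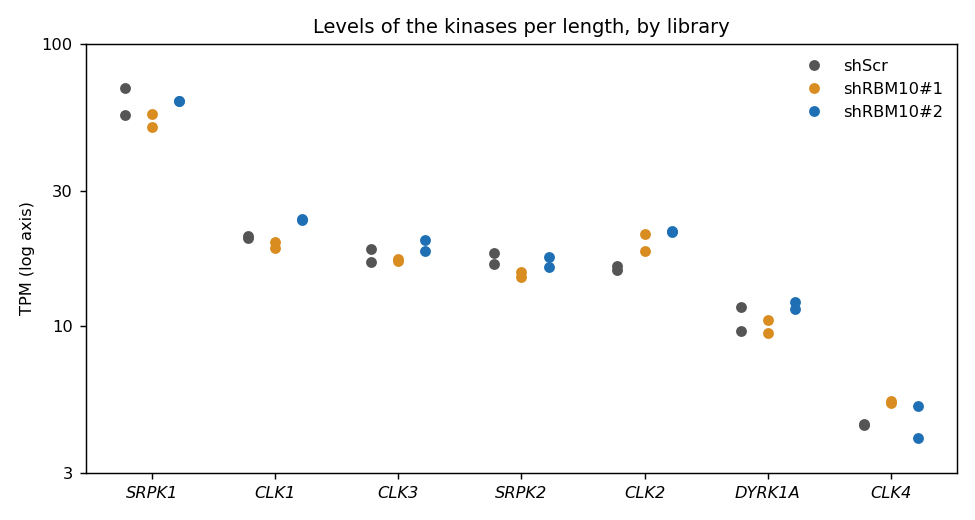
TPM of each kinase (vertical axis, log scale) in the 2 libraries of shScr, shRBM10#1 and shRBM10#2, 1 point per library and ordered by the mean in shScr. SRPK1 lies highest, at 50.5 to 70.0 TPM, and CLK4 lowest, at 3.99 to 5.38 TPM, in all 6 libraries.

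CLK2 was the kinase whose gene total was higher with both shRNAs. The shScr libraries gave 20.9 and 19.1 CPM for CLK2, the shRBM10#1 libraries 27.7 and 24.9 CPM and the shRBM10#2 libraries 27.8 and 28.2 CPM. All 4 RBM10 KD libraries lay above both shScr libraries. For shRBM10#1 the log2 FC was 0.39 (SE 0.0865, FDR = 0.00946 by the quasi-likelihood test of edgeR, Benjamini-Hochberg over 14217 genes). The value of shRBM10#2 was 0.48 (SE 0.0857, FDR = 0.00197, edgeR). The shRNAs did not differ detectably for CLK2, with a log2 FC between them of 0.09 (SE 0.0838, FDR = 0.451, edgeR). Without shScr replicate 2, the log2 FC with shRBM10#1 was 0.33 and no longer passed (FDR = 0.0824, edgeR).

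CLK1, a nuclear kinase like CLK2, was higher with shRBM10#2. Its values were 26.8 and 24.5 CPM in shScr, 26.5 and 26.8 CPM in shRBM10#1 and 32.4 CPM in both shRBM10#2 libraries. The shScr and shRBM10#1 libraries overlapped in CPM, and the shRBM10#2 libraries lay above all others. In TPM, CLK1 gave 20.5 and 20.9 in shScr, 18.8 and 19.8 in shRBM10#1 and 23.9 and 23.7 in shRBM10#2. The shRBM10#1 libraries thus lay below shScr in TPM. The log2 FC was 0.34 for shRBM10#2 relative to shScr (SE 0.0765, FDR = 0.00740, edgeR) and 0.06 for shRBM10#1 (SE 0.0778, FDR = 0.688, edgeR). The difference between the shRNAs itself passed, with a log2 FC of 0.28 (SE 0.0761, FDR = 0.0171, edgeR). The call relative to shScr was lost without shScr replicate 2 (log2 FC 0.27, FDR = 0.0524, edgeR) and without shRBM10#2 replicate 1 (FDR = 0.0716, edgeR) or replicate 2 (FDR = 0.0806, edgeR). The call between the shRNAs was likewise lost without either shRBM10#2 library (FDR = 0.125 without replicate 1 and 0.131 without replicate 2, edgeR).

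DYRK1A was also higher with shRBM10#2, by a smaller margin. Its values were 34.0 and 36.0 CPM in shScr, 36.7 and 34.1 CPM in shRBM10#1 and 42.2 and 39.8 CPM in shRBM10#2. In CPM, both shRBM10#2 libraries stood above the other 4, which overlapped. In TPM, shRBM10#2 overlapped shScr, at 12.1 and 11.4 against 9.59 and 11.6. The log2 FC of shRBM10#2 against shScr was 0.23 (SE 0.0752, FDR = 0.0406, edgeR), and it passed in 6 of the 13 alternatives run. With DESeq2 its FDR was 0.0763, with an offset for effective length 0.0696 (edgeR), and with the replicate number as a block 0.0615 (edgeR). It was lost when any shScr or shRBM10#2 library was left out, with an FDR of 0.176 and 0.0627 without shScr replicates 1 and 2, and of 0.302 and 0.129 without shRBM10#2 replicates 1 and 2 (edgeR).

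The remaining 4 kinases passed in no comparison of gene totals. CLK3 gave 22.1 and 21.0 CPM in shScr, 22.2 and 22.8 CPM in shRBM10#1 and 24.5 and 22.3 CPM in shRBM10#2, so the RBM10 KD libraries lay above shScr in CPM, the nearest of them by less than the spread within any condition. In TPM they overlapped, with CLK3 at 16.8 and 18.7 in shScr, 17.0 and 17.2 in shRBM10#1 and 20.2 and 18.5 in shRBM10#2. CLK4 gave 6.96 and 6.14 CPM in shScr, 8.28 and 8.47 CPM in shRBM10#1 and 7.92 and 6.11 CPM in shRBM10#2, with a log2 FC for shRBM10#1 of 0.36 that did not pass (SE 0.144, FDR = 0.124, edgeR). The shRBM10#1 libraries of CLK4 lay above both shScr libraries, and those of shRBM10#2 spanned them. The cytoplasmic kinase SRPK1 gave 160 and 175 CPM in shScr, 159 and 147 CPM in shRBM10#1 and 175 and 176 CPM in shRBM10#2. Its log2 FC between shRBM10#2 and shRBM10#1 was 0.20 (SE 0.0677, FDR = 0.0507, edgeR), and 7 of 13 alternatives put it past the threshold, among them DESeq2 (FDR = 0.0440) and the fit of those conditions alone (FDR = 0.0401, edgeR). SRPK2 was measured at 36.2 to 41.0 CPM in all 6 libraries.

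Counted together, 1 of the 7 kinases passed with shRBM10#1 and was higher, where 14.0% of all genes tested passed and 7.13% were higher. With shRBM10#2, 3 of 7 passed and all were higher, where 25.9% of all genes passed and 12.0% were higher. Between the shRNAs, 1 of 7 passed, against 25.5% of all genes. When the 4 RBM10 KD libraries formed a single group, 0 of 7 passed, against 1.62% of all genes, and 1 (CLK2) had an unadjusted p below 0.05, against 17.2%. RBM10 itself did not pass there (log2 FC −0.99, SE 0.306, FDR = 0.146, edgeR). This fit counts differences between the shRNAs as spread, so a count of 0 does not show that the kinases were unchanged. The pooled log2 FC of CLK2 was 0.44 (SE 0.0934, FDR = 0.0574, edgeR), with an FDR of 0.00660 by DESeq2 and of 0.00213 with one coefficient per condition in edgeR. In gene totals, no kinase also reached the absolute log2 FC above 1 of the study's criteria, which 1.88% of all genes met with shRBM10#1, 1.3% with shRBM10#2, 1.19% between the shRNAs and 0.394% in the pooled comparison. The median log2 FC of the 7 was 0.06 with shRBM10#1 and 0.12 with shRBM10#2, where the medians of all genes were 0.0079 and 0.0054. The comparisons with shScr share the same control libraries, so the values are given side by side and not as independent evidence. In CPM, 2 of the 7 (CLK2 and CLK3) were higher in all 4 RBM10 KD libraries than in both shScr libraries, against 15.2% of 13330 genes with at least 10 counts in every library. In TPM this held for CLK2 and not for CLK3.

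**Figure D2:**
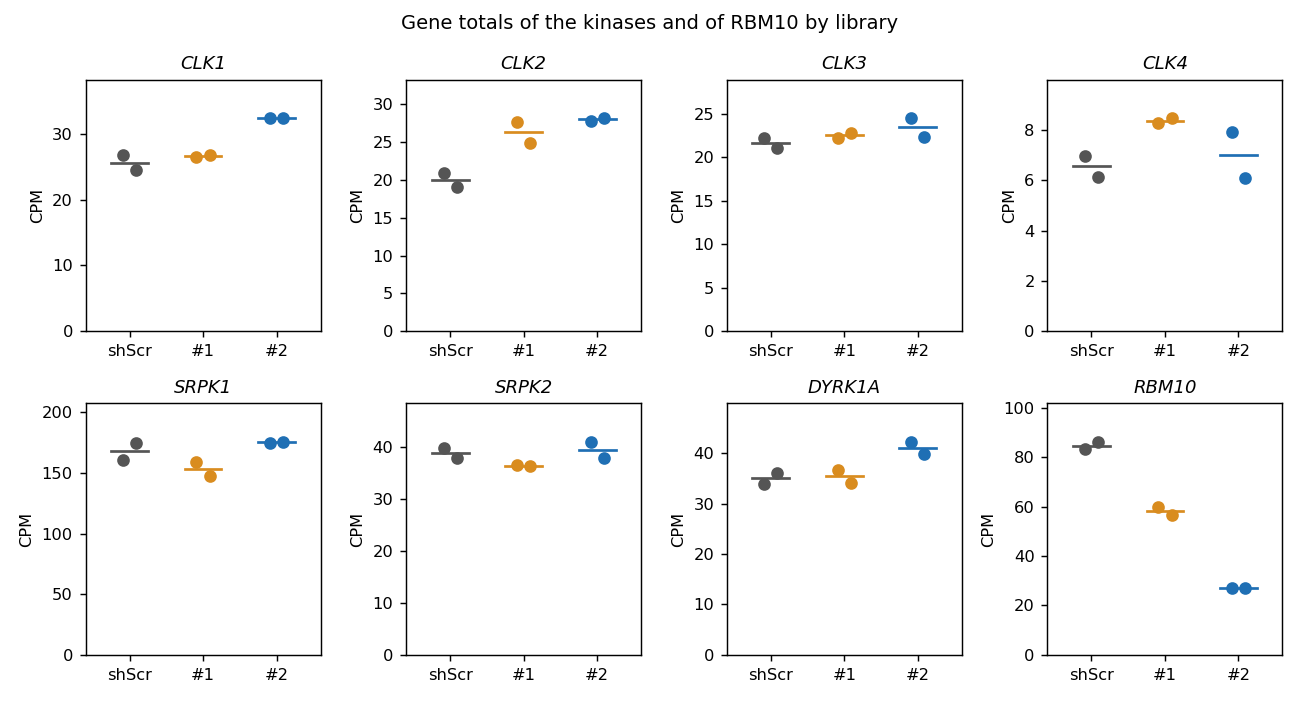
CPM of each kinase and of RBM10 (vertical axes, each from 0) in shScr, shRBM10#1 and shRBM10#2, with 1 point per library and a line at the mean of 2 libraries. CLK2 is higher in all 4 RBM10 KD libraries, CLK1 and DYRK1A are higher in the shRBM10#2 libraries, and RBM10 falls from 83.2 and 86.2 CPM to 27.2 and 26.9 CPM with shRBM10#2.

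**Figure D3:**
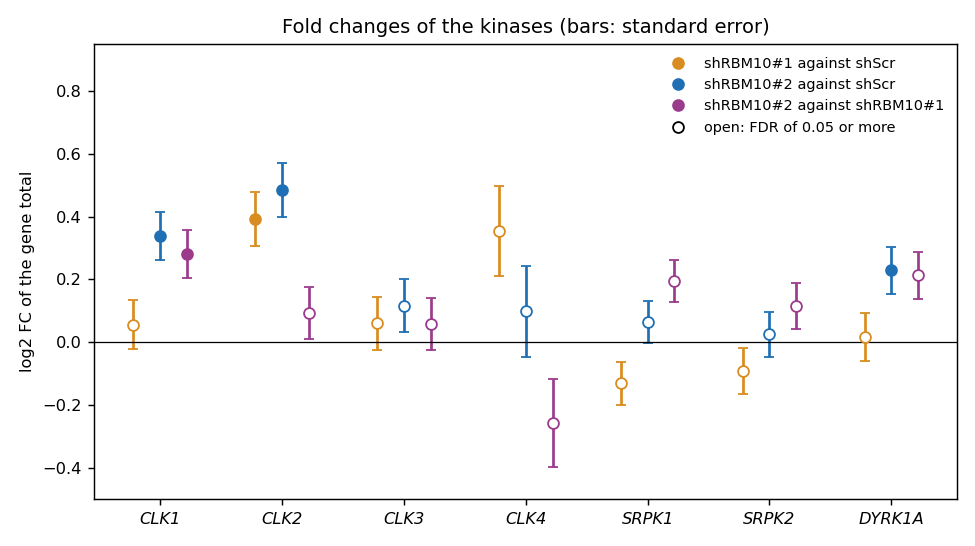
Log2 FC of the gene total of each kinase for shRBM10#1 and shRBM10#2 relative to shScr and for shRBM10#2 relative to shRBM10#1, with the standard error as bars. Filled points have an FDR below 0.05 by edgeR: CLK2 with both shRNAs, and CLK1 and DYRK1A with shRBM10#2, and CLK1 between the shRNAs.

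The isoforms show where these counts lie within CLK1. NR_027856, the isoform with introns 3 and 4 retained, gave 7.08 and 7.11 CPM in shScr, 11.3 and 8.17 CPM in shRBM10#1 and 12.5 and 13.0 CPM in shRBM10#2. All 4 RBM10 KD libraries lay above both shScr libraries in CPM, and the shRBM10#1 libraries differed from each other. In TPM, shRBM10#1 replicate 2 (3.75) lay just below shScr replicate 2 (3.79). The same CPM pattern was seen in 15.2% of gene totals with at least 10 counts in every library, and was not counted over isoforms. NR_027855, the isoform without exon 4, gave 6.38 and 6.02 CPM in shScr, 5.27 and 6.76 CPM in shRBM10#1 and 8.43 and 10.3 CPM in shRBM10#2. The shRBM10#2 libraries lay above the other 4, and those of shRBM10#1 spanned the shScr values. The main coding isoform NM_004071 gave 12.8 and 10.6 CPM in shScr, 9.20 and 11.4 CPM in shRBM10#1 and 10.96 and 8.56 CPM in shRBM10#2. These CPM ranges overlapped in all conditions. In TPM, NM_004071 gave 10.98 and 10.26 in shScr, 8.05 and 9.62 in shRBM10#1 and 9.67 and 7.52 in shRBM10#2. All 4 RBM10 KD libraries lay below both shScr libraries in TPM, a pattern that was not counted over all isoforms. NM_001162407, the other coding isoform, stayed between 0.489 and 0.790 CPM.

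None of these isoforms passed on its own in edgeR. With shRBM10#2 relative to shScr, the log2 FC was 0.85 for NR_027856 (SE 0.182, FDR = 0.0786, edgeR), 0.60 for NR_027855 (SE 0.198, FDR = 0.169, edgeR) and −0.26 for NM_004071 (SE 0.199, FDR = 0.538, edgeR). With shRBM10#1 the values were 0.45 (FDR = 0.353), −0.04 (FDR = 0.960) and −0.18 (FDR = 0.755) in the same order (edgeR). The value of NR_027856 with shRBM10#1 was 0.20 without shRBM10#1 replicate 1 and 0.67 without replicate 2, and that of NM_004071 ranged from −0.35 to −0.038 when a library was left out, being nearest to 0 without shScr replicate 1 or shRBM10#1 replicate 1. For NR_027855 the shRNAs differed by a log2 FC of 0.64 (SE 0.198, FDR = 0.159, edgeR). DESeq2 called NR_027856 (FDR = 6.72e-04) and NR_027855 (FDR = 0.0457) with shRBM10#2, and edgeR with at least 10 counts in every library called NR_027856 (FDR = 0.0446), as it did 7.85% of 20979 isoforms with shRBM10#2.

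The noncoding share of CLK1, the percent of the gene's expected counts assigned to NR_027855 and NR_027856, was 50.3% (95% Wilson interval 46.9% to 53.5%) and 53.6% (50.1% to 57.0%) in the shScr libraries. In the shRBM10#1 libraries it was 62.7% (59.3% to 65.9%) and 55.7% (52.6% to 58.7%), and in the shRBM10#2 libraries 64.6% (61.8% to 67.2%) and 71.9% (69.3% to 74.3%). The intervals cover counting error alone and not the division of shared reads between isoforms. All 4 RBM10 KD libraries lay above both shScr libraries, a pattern seen in 75 of 1156 genes (6.49%) that list both classes and have at least 100 counts in every library. The mean share was 52.0% ± 2.37 in shScr, 59.2% ± 4.95 in shRBM10#1 and 68.2% ± 5.18 in shRBM10#2 (SD, n = 2 each). The difference from shScr was 7.25 percentage points with shRBM10#1 and 16.3 points with shRBM10#2 (exact two-sided permutation test, p = 0.333 in both cases, which is the lower limit with 2 libraries against 2). For the 4 RBM10 KD libraries together it was 11.8 points (exact two-sided permutation test, p = 0.133, the smallest that 4 against 2 allow). With shRBM10#1 the difference was 3.74 points without its replicate 1 and 10.7 points without its replicate 2. The median difference over the 1156 genes was −0.0022 points for the 4 libraries together.

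In the test across all 1059 genes with both classes, the log2 FC of the noncoding class of CLK1 relative to the whole gene was 0.27 with shRBM10#2 (unadjusted p = 0.0151, FDR = 0.271, edgeR diffSpliceDGE). The value was 0.13 with shRBM10#1 (FDR = 1.00, edgeR diffSpliceDGE) and 0.14 between the shRNAs (FDR = 0.902, edgeR diffSpliceDGE). The call depended on the tool, since limma's diffSplice, which compares the noncoding with the coding class, gave a log2 FC of 1.00 with shRBM10#2 (FDR = 0.0294), where it called 1.89% of the 1059 genes. Of the 2 members with both classes, 0 passed with either shRNA or between them in edgeR, where 0.0%, 0.472% and 0.0% of the genes passed with shRBM10#1, with shRBM10#2 and between the shRNAs. At an unadjusted p below 0.05, edgeR counted CLK1 with shRBM10#2 and neither member elsewhere, where 7.93%, 10.6% and 9.35% of the genes had such a p, in the same order.

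**Figure D4:**
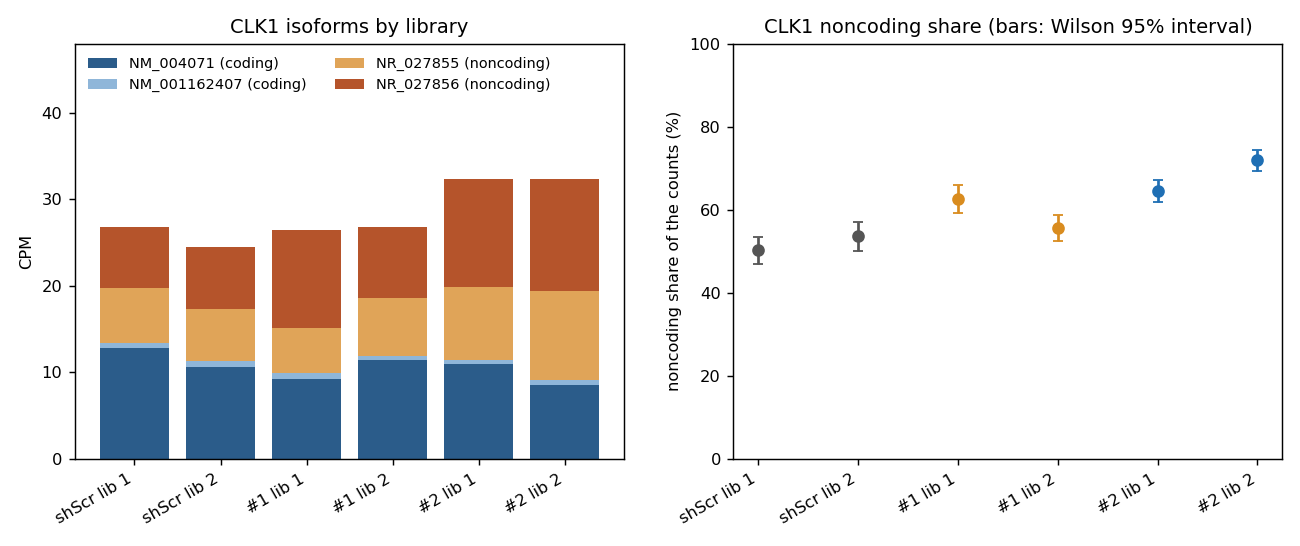
Left, CPM of the 4 CLK1 isoforms stacked per library, with the coding isoforms in blue and the noncoding ones in orange and brown. Right, the noncoding share of the CLK1 counts (percent) per library with its 95% Wilson interval, from 50.3% and 53.6% in shScr to 64.6% and 71.9% with shRBM10#2.

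In CLK2, every isoform listed is coding, and the values differ between the forms of exon 4. NM_003993 and NM_001294338 differ by 3 nt, so their shared reads are divided by likelihood. The tests below do not carry that uncertainty. NM_003993, whose exon 4 starts 3 nt later, gave 2.62 and 4.07 CPM in shScr, 7.22 and 6.41 CPM in shRBM10#1 and 8.64 and 8.38 CPM in shRBM10#2. NM_001294338, with the longer exon 4, gave 14.7 and 13.9 CPM in shScr, 18.6 and 18.0 CPM in shRBM10#1 and 18.0 and 18.6 CPM in shRBM10#2. Both isoforms lay above both shScr libraries in all 4 RBM10 KD libraries. This pattern was seen in 15.2% of gene totals with at least 10 counts in every library, and was not counted over isoforms. NM_001294339 gave 3.67 and 1.06 CPM in shScr and 0.570 to 1.89 CPM in the RBM10 KD libraries, which overlapped. As a share of the gene's counts, NM_003993 took 12.5% and 21.3% in shScr, 26.1% and 25.7% in shRBM10#1 and 31.0% and 29.8% in shRBM10#2. All 4 RBM10 KD libraries lay above both shScr libraries in this share, a pattern that was not counted over all isoforms. The shScr libraries differed from each other, and NM_001294339 took 17.5% and 5.64% of the counts in them.

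The log2 FC of NM_003993 was 1.02 with shRBM10#1 (SE 0.249, FDR = 0.168, edgeR). The shRBM10#2 libraries gave 1.35 for it (SE 0.250, FDR = 0.0627, edgeR). For NM_001294338 it was 0.35 (SE 0.0869, FDR = 0.172, edgeR) and 0.36 (SE 0.0868, FDR = 0.0958, edgeR). Neither passed in edgeR, whereas DESeq2 called NM_003993 with shRBM10#1 (FDR = 0.00355) and shRBM10#2 (FDR = 1.58e-05) and NM_001294338 with shRBM10#1 (FDR = 0.0158) and shRBM10#2 (FDR = 0.00725). With at least 10 counts in every library, edgeR called NM_003993 with shRBM10#2 (FDR = 0.0303). The log2 FC of NM_003993 was above 1 with both shRNAs, but its FDR in edgeR kept it outside the study's criteria, and without a library the log2 FC ranged from 0.74 to 1.38 with shRBM10#1 and from 1.07 to 1.70 with shRBM10#2. The isoform usage test, which asks whether the shares within the gene changed, did not call CLK2 (FDR = 1.00 with either shRNA, edgeR diffSpliceDGE).

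In SRPK1, the noncoding NR_034069 held a small part of the gene. Its share of the counts was 3.06% (95% Wilson interval 2.62% to 3.55%) and 3.14% (2.72% to 3.63%) with shScr. In the shRBM10#1 libraries it was 2.34% (1.95% to 2.79%) and 3.32% (2.87% to 3.83%), and in the shRBM10#2 libraries 4.03% (3.58% to 4.54%) and 4.83% (4.34% to 5.37%). The shRBM10#1 libraries lay on either side of shScr, and both shRBM10#2 libraries lay above it. The difference from shScr was 1.33 points with shRBM10#2 (exact two-sided permutation test, p = 0.333, the smallest possible) and −0.27 points with shRBM10#1 (exact permutation p = 1.00). Without shRBM10#1 replicate 1 the latter was 0.22 points. For NR_034069 the log2 FC of shRBM10#2 was 0.58 against shScr (SE 0.217, FDR = 0.211, edgeR) and 0.86 against shRBM10#1 (SE 0.218, FDR = 0.111, edgeR), and DESeq2 called the latter (FDR = 0.00631). Relative to the gene, the noncoding class of SRPK1 differed by a log2 FC of 0.46 between the shRNAs (unadjusted p = 0.0577, FDR = 0.563, edgeR diffSpliceDGE).

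**Figure D5:**
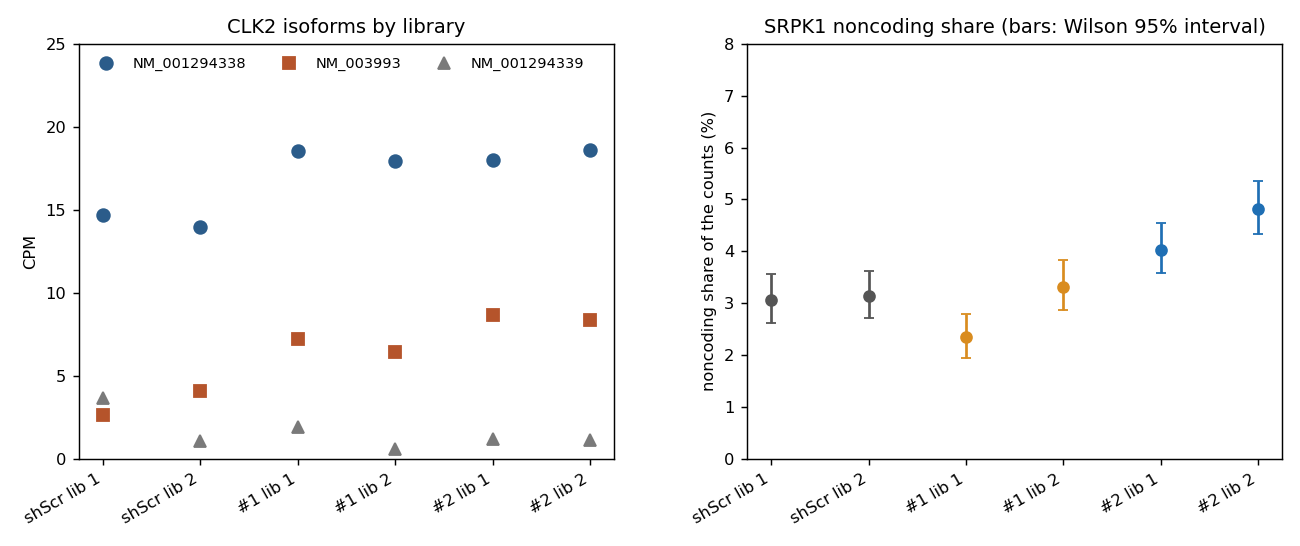
Left, CPM of the 3 CLK2 isoforms per library, with NM_003993 at 2.62 and 4.07 CPM in shScr and 6.41 to 8.64 CPM in the RBM10 KD libraries. Right, the noncoding share of the SRPK1 counts (percent) per library with its 95% Wilson interval, at 3.06% and 3.14% in shScr and 4.03% and 4.83% with shRBM10#2.

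The CLK3 total was split between 2 coding isoforms, whereas each remaining gene had a single or a dominant one. The CLK3 isoforms NM_003992 and NM_001130028, of 1846 and 2696 nt, shared the gene in shScr cells, where NM_003992 took 53.4% and 61.4% of the counts. It took 51.3% and 56.8% with shRBM10#1 and 66.9% and 69.7% with shRBM10#2, above all other libraries. The log2 FC of NM_003992 was 0.37 with shRBM10#2 relative to shScr (SE 0.118, FDR = 0.159, edgeR; FDR = 0.0417, DESeq2) and 0.40 between the shRNAs (SE 0.118, FDR = 0.149, edgeR; FDR = 0.0292, DESeq2). CLK4 has 1 isoform in the quantification. SRPK2 was carried by NM_182692, with 88.5% to 93.8% of its counts in every library, and DYRK1A by NM_001396, with 82.9% to 89.5%. NM_130438 of DYRK1A was listed at 0 in all 6 libraries and was the only one of the 19 isoforms not tested.

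Over the 18 isoforms tested, 0 passed in edgeR in any comparison, where 0.0302% of all 26464 isoforms passed with shRBM10#1, 2.26% with shRBM10#2, 2.25% between the shRNAs and 0.0% in the pooled comparison. At an unadjusted p below 0.05 the counts were 2, 7, 6 and 3 of the 18 in the same order, where the shares of all isoforms were 14.5%, 21.5%, 20.3% and 10.9%. DESeq2 called 2, 5, 4 and 2 of them, where it called 9.13%, 17.4%, 16.1% and 3.09% of all isoforms. For isoform usage, 0 of the 6 kinases with at least 2 isoforms passed in edgeR with either shRNA or between them, against 0.25% of 6405 genes with shRBM10#1, 1.9% with shRBM10#2 and 1.22% between the shRNAs. None had an unadjusted p below 0.05, as 5.5%, 9.09% and 7.65% of the genes did. With limma's diffSplice, CLK1 passed with shRBM10#2 (FDR = 0.0323), as did 6.4% of the genes.

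Among the related kinases (SRPK3, other DYRK kinases, the HIPK family and PRPF4B), 9 of 10 listed genes were tested. With shRBM10#1, 0 were higher and 2 lower at an FDR below 0.05, where 14.0% of all genes passed, and with shRBM10#2, 2 were higher and 1 lower, where 25.9% passed. HIPK2, a nuclear kinase of the stress response, fell with both shRNAs, from 76.3 and 85.7 CPM in shScr to 64.1 and 53.1 CPM in shRBM10#1 (log2 FC −0.47, FDR = 0.00413, edgeR) and 61.7 and 62.8 CPM in shRBM10#2 (log2 FC −0.38, FDR = 0.00876, edgeR). Without shScr replicate 2, neither HIPK2 value passed, at −0.38 with shRBM10#1 (FDR = 0.0584, edgeR) and −0.29 with shRBM10#2 (FDR = 0.0795, edgeR). The latter was also lost without shRBM10#2 replicate 1 (FDR = 0.0794, edgeR) or replicate 2 (FDR = 0.0745, edgeR). HIPK3, its close relative, moved in opposite directions, from 122 and 129 CPM with shScr to 97.4 and 99.8 CPM with shRBM10#1 (log2 FC −0.34, FDR = 0.00561, edgeR) and 160 and 144 CPM with shRBM10#2 (log2 FC 0.28, FDR = 0.0105, edgeR). DYRK4 was higher with shRBM10#2, at 11.9 and 11.5 CPM against 8.38 and 8.51 CPM with shScr (log2 FC 0.47, FDR = 0.0105, edgeR). The value of HIPK3 with shRBM10#1 was −0.30 without shScr replicate 2 (FDR = 0.0565, edgeR), so that the 2 calls with shRBM10#1 were 0 there. The 3 with shRBM10#2 were 0 without shRBM10#2 replicate 1, 1 without shRBM10#2 replicate 2 or shScr replicate 1, and 5 without either shRBM10#1 library.

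Of the SR proteins and their relatives that these kinases phosphorylate, 13 of 14 listed genes were tested. With shRBM10#1, 1 was higher and 1 lower, where 14.0% of all genes passed, and with shRBM10#2, 0 were higher and 3 lower, where 25.9% passed. TRA2A, an activator of exon inclusion, fell with both shRNAs, from 46.9 and 44.3 CPM with shScr to 37.97 and 37.95 CPM with shRBM10#1 (log2 FC −0.26, FDR = 0.0241, edgeR) and to 39.4 and 38.5 CPM with shRBM10#2 (log2 FC −0.23, FDR = 0.0290, edgeR). SRSF4 was higher with shRBM10#1 (log2 FC 0.24, FDR = 0.0366, edgeR) and lower with shRBM10#2 (log2 FC −0.21, FDR = 0.0455, edgeR), with 76.5 and 69.2 CPM in shScr, 86.7 and 85.4 CPM in shRBM10#1 and 64.2 and 62.1 CPM in shRBM10#2. SRSF9 was lower with shRBM10#2, at 228 and 227 CPM against 280 and 264 CPM with shScr (log2 FC −0.26, FDR = 0.0111, edgeR). Without shScr replicate 2, the log2 FC of SRSF4 with shRBM10#1 was 0.17 (FDR = 0.221, edgeR). The 2 calls among the SR proteins with shRBM10#1 were 0 or 1 in each of the 6 fits that left out a library, and the 3 calls with shRBM10#2 were 0 without shScr replicate 1 or either shRBM10#2 library.

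Of 5 genes for import and dephosphorylation of SR proteins, 0 passed with shRBM10#1, where 14.0% of all genes did, and 2 with shRBM10#2, 1 in each direction, where 25.9% of all genes did. These are catalytic subunits of PP1. PPP1CC was measured at 241 and 246 CPM with shScr and 290 and 305 CPM with shRBM10#2 (log2 FC 0.29, FDR = 0.00535, edgeR), and PPP1CA at 425 and 402 CPM with shScr and 357 and 353 CPM with shRBM10#2 (log2 FC −0.22, FDR = 0.0213, edgeR). The 2 calls were 1 without shScr replicate 1 or shRBM10#2 replicate 1 and 0 without shRBM10#2 replicate 2. The median log2 FC with shRBM10#2 was 0.13 for the related kinases, 0.01 for the SR proteins and 0.01 for this group, beside 0.0054 over all genes.

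The genes whose log2 CPM followed each called kinase most closely over the 6 libraries were named by the root mean square of the difference after centring each gene. For CLK2 they were PBLD (0.0382), ZNF639 (0.0414) and WASF3 (0.0491). For CLK1 they were TRAPPC13 (0.0173), BLOC1S2 (0.0278) and EPS15 (0.0286), and for DYRK1A TAF1A (0.0159), CDK19 (0.0205) and SOS1 (0.0232). With 6 libraries in 3 conditions, such likeness is a description of these libraries.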

How the data were processed

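The 6 libraries were grouped by their labels, which name shScr as the control. Per the submitters' processing notes, STAR 2.4, RSEM 1.2.29, edgeR and the build hg19 were named. The strand protocol is not given in the sources used here. RSEM assigns reads shared by isoforms by likelihood, so isoforms that differ by a few nt are the least certain. The authors deposited, per RefSeq isoform and library, expected counts, which need not be whole. The authors also deposited TPM, which is scaled by effective length and was used for levels between genes, and FPKM. The percent of each gene's expression per isoform (IsoPct) was deposited too and, like FPKM, was not used here.

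Expected counts were summed per gene, rounded, scaled by TMM and filtered with filterByExpr. Libraries were compared with the quasi-likelihood test of edgeR 4.0.16 (R 4.3.3), with 3 conditions in one fit or 2 groups for the pooled comparison, and Benjamini-Hochberg adjustment over all features. SE is the log2 FC divided by the square root of the F statistic. Isoform usage and the coding and noncoding classes were tested with edgeR's diffSpliceDGE. The edgeR tests of shRBM10#2 against shScr were also run on simulated data, with the same spread set for all features of a test. There the isoform usage test called unchanged genes more often than its threshold implies. The tests of gene totals, isoforms and classes stayed close to theirs. The pooled comparison, DESeq2 and limma were not simulated, so their error rates are not known from this. Alternatives were DESeq2 1.42.0, its size factors in edgeR, limma 3.58.1 (diffSplice), no filter, at least 10 counts in every library, an effective length offset, the conditions fitted apart, a replicate block and each library left out. Exact permutation tests and 95% Wilson intervals used SciPy 1.17.1. No library was a copy of another: over genes, the chi-square of replicates divided by its degrees of freedom was 3.16 to 11.9.

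Exon sequences and coordinates were read from GENCODE 29 (GRCh38) through its RefSeq identifiers, and gene spans from RefSeq (GRCh38.p14). The kinases, the lists and the tests were chosen with earlier results of these data known. Listed genes were named when called with either shRNA, at most 4 a list by absolute log2 FC, and the 3 nearest genes for each called kinase.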

Additional observations from a re-analysis of the deposited data

Results flagged for a closer look

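The shRNAs differed from each other in 6 of the kinases and listed genes named above by their comparison with shScr. CLK1 was higher with shRBM10#2 than with shRBM10#1 by a log2 FC of 0.28 (FDR = 0.0171, edgeR). HIPK3 was higher by 0.62 (FDR = 1.56e-04, edgeR), having fallen with shRBM10#1 and risen with shRBM10#2 relative to shScr. PPP1CC was higher by 0.26 (FDR = 0.00900, edgeR). PPP1CA had a log2 FC of −0.32 (FDR = 0.00343, edgeR), SRSF9 of −0.27 (FDR = 0.00906, edgeR) and SRSF4 of −0.45 (FDR = 9.59e-04, edgeR). CLK1, PPP1CC, PPP1CA and SRSF9 each passed in 11 of the 13 alternatives, and HIPK3 and SRSF4 in all 13. The fits that lost a call each left out an shRBM10#2 library. There the log2 FC was 0.30 and 0.23 for PPP1CC, −0.32 and −0.30 for PPP1CA and −0.27 and −0.26 for SRSF9. Each of the 6 was picked out because the test of the difference between the shRNAs passed, which 25.5% of all genes tested did. That rate is not one for genes chosen in this way, since their calls relative to shScr use the same shRNA libraries. CLK2, DYRK1A, DYRK4, HIPK2 and TRA2A were named by the same rule and did not pass between the shRNAs. Of the listed related kinases, DYRK2 (log2 FC −0.33, FDR = 0.00892, edgeR) and DYRK1B (log2 FC −0.39, FDR = 0.0266, edgeR) were also lower with shRBM10#2 than with shRBM10#1 and are named after their values were seen. RBM10 itself was lower (log2 FC −1.11, FDR = 3.65e-06, edgeR), at 27.2 and 26.9 CPM against 59.8 and 56.4 CPM, and its part in these differences was not tested.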

How the results depend on the processing

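For gene totals, the count of kinases called moved by more than 1.5 times in 1 of 13 alternatives with shRBM10#1, in 3 with shRBM10#2 and in 9 between the shRNAs. For the pooled comparison of gene totals it was 1 instead of 0 with DESeq2 and with one coefficient per condition. Between the shRNAs it was 2 instead of 1 with DESeq2 and in the fit of those conditions alone, and 3 without the filter or under the minimum of 10 counts, SRPK1 and DYRK1A being the genes gained. Without a library the counts ranged from 0 to 1 with shRBM10#1, from 1 to 3 with shRBM10#2, from 0 to 3 between the shRNAs and 0 in the pooled comparison. For isoforms DESeq2 called 2 with shRBM10#1, 5 with shRBM10#2, 4 between the shRNAs and 2 in the pooled comparison instead of 0, and the minimum of 10 counts called 2 with shRBM10#2. For isoform usage and for the classes, limma's diffSplice called 1 (CLK1) with shRBM10#2 instead of 0.

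Directions turned only for values near 0. The log2 FC with shRBM10#1 became −0.010 for CLK1 and −0.0018 for DYRK1A with the effective length offset. Without a library, the log2 FC ranged from −0.0073 to 0.12 for CLK1, −0.036 to 0.070 for DYRK1A and −0.24 to 0.13 for NR_027855 with shRBM10#1, from −0.10 to 0.28 for CLK4 and −0.032 to 0.081 for SRPK2 with shRBM10#2, and from −0.012 to 0.13 for CLK3 and −0.27 to 0.091 for NM_004071 between the shRNAs. For HIPK2 it ranged from −0.044 to 0.23 between the shRNAs, and for SRSF9 from −0.031 to 0.053 with shRBM10#1. In the pooled comparison it ranged from −0.092 to 0.033 for SRPK1 and −0.071 to 0.0060 for SRPK2. The noncoding class of SRPK1 ranged from −0.28 to 0.068 and its share from −0.76 to 0.22 points with shRBM10#1. The noncoding share of CLK1 differed from shScr by 3.74 to 10.7 points with shRBM10#1, 12.6 to 19.95 with shRBM10#2 and 9.04 to 14.4 in the pooled comparison, and in TPM by 5.95, 16.2 and 11.1 points. With 1 library left in a condition, that library is assumed to vary like the others. The causes were not tested.

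Same-numbered libraries did not deviate together (correlations of −0.0019, −0.022 and −0.015 across genes), so the numbers were not taken as pairs. With the replicate block, 107 of 109 results were as reported, and DYRK1A (FDR = 0.0615, edgeR) and SRSF4 (FDR = 0.0616, edgeR) with shRBM10#2 no longer passed. Within replicate numbers the exact permutation p of the CLK1 share was 0.222 in the pooled comparison.

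Counts over all features moved as well. Gene totals called in the pooled comparison were 230, but 718 with DESeq2, 2610 with one coefficient per condition, 52 with the block and 0 without either shScr library. Isoforms called with shRBM10#1 were 8 in edgeR, 2416 in DESeq2 and 380 with the minimum of 10 counts, and with shRBM10#2 597, 4596 and 1647, and with the block 0 for both.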
